A study of Mus musculus with 2 samples.

Results

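The genes described here encode 10 subunits of the machinery that cuts a nascent messenger RNA at its 3′ end and prompts the addition of the poly(A) tail. They were chosen by symbol: Cstf1, Cstf2 and Cstf3 of the cleavage stimulation factor (CstF), Cpsf1, Cpsf2, Cpsf3 and Cpsf4 of the cleavage and polyadenylation specificity factor (CPSF), Pcf11 and Clp1 of cleavage factor II, and the scaffold Sympk. Each had 1 row among the 24061 rows of the deposited read count table, and all 10 had enough counts to be measured. The RNA was poly(A)-selected and came from C57BL/6 mouse embryonic stem cells kept on embryonic fibroblast feeders with leukaemia inhibitory factor. The library labelled Pc4-OE stands for cells at passages 24 to 37 that carry a Pc4 lentivirus with a Venus reporter, and the library labelled control for cells at passages 17 to 23. Picked colonies gave 3 Pc4-overexpressing lines, and the labels do not say which of them the 1 library came from, whether the control cells carried any virus, or whether feeders were taken away before RNA extraction. The study asks how expression differs with Pc4 overexpression. There was 1 library per label, so passage and Pc4 status cannot be told apart, no spread between cultures was measured, and no p-value is given.

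The poly(A) signal, most often the hexamer AAUAAA, is read in the nascent RNA by CPSF, while CstF binds a U-rich or GU-rich element beyond the cut site. CPSF holds the endonuclease that makes the cut, cleavage factor II links the cut to the carboxy-terminal domain of RNA polymerase II, and symplekin holds CPSF and CstF together. These roles are known mainly from human and yeast proteins. PC4, the single-stranded DNA-binding coactivator encoded by Sub1, is a known partner of CstF through the CSTF2 subunit and its yeast counterpart. Several of these factors are themselves subject to poly(A) site choice, so that their genes give both a full-length transcript and one that stops early in an intron.

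The 3′ ends of the transcripts of a few of these genes are shown because they hold the hexamer that the machinery reads through CPSF. The sequences were read from GENCODE M21 transcripts (GRCm38) as the DNA letters of the transcribed strand, 5′ to 3′, each 30 bases long, with the hexamer in capitals. Those of Cstf3, Clp1, Cpsf4, Pcf11 and Sympk come from the end of the longest coding transcript. The Sympk stretch stops 4 bases short of that end so that the hexamer is included. The Clp1 stretch lies beyond the end of the Clp1 gene in RefSeq.
Cstf3, chr2:104665400-104665429, plus strand: aaaggAATAAAaggacctcaaaaacatgcc
Clp1, chr2:84722104-84722133, minus strand: taagtatacAATAAAtttaaccttttcttc
Cpsf4, chr5:145182011-145182040, plus strand: ctatgaggttgATTAAAaagcttgtttttt
Pcf11, chr7:92643543-92643572, minus strand: ATTAAAacttgtgattttttttccgtggga
Sympk, chr7:19054584-19054613, plus strand: AATAAAagagggcgtagctgcgccaggtta
Annotated transcripts of Cstf2, Cstf3, Pcf11 and Sympk that stop inside an intron also hold a hexamer near their end. Of these, 1 each of Cstf3 and Pcf11 is shown. Other such transcripts of Cstf2, Cpsf3, Sympk and Pcf11 had no match, that of Pcf11 also stopping in intron 1.
Cstf3, transcript ending in intron 3, chr2:104611377-104611406, plus strand: gaaAATAAAgctttgttaatacgttgttgt
Pcf11, transcript ending in intron 1, chr7:92668184-92668213, minus strand: aaaatttgtgAATAAAacatataaaatatg

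A search of the last 40 bases of the longest coding transcript, on the transcribed strand only, found AATAAA in Cstf1, Cstf2, Cstf3, Cpsf2, Clp1 and Sympk and, where that was missing, ATTAAA in Cpsf4 and Pcf11. Cpsf1 and Cpsf3 had no match to these letters in that window. Over 21897 coding genes, 57.3% held AATAAA in the window and 70% held at least 1 of the hexamers, and occurrences of the hexamers can share bases with each other. A match is a description of the annotated end and not evidence that it is used in these cells. The count table has 1 value per gene, so a full-length transcript and a transcript stopped in an intron add to the same value where the annotation used for counting covers both.

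Depth was alike, at 10194783 counts for Pc4-OE and 10571463 for control. Sub1 itself had 235.0 CPM in the library labelled Pc4-OE and 530.3 CPM in the library labelled control, a log2 ratio of -1.17 (interval -1.24 to -1.11), which goes against the label, and reads of the virus insert were not analysed here. The libraries are therefore named by their labels, and every direction below is that of the labels. CPM is the read count scaled to library size, here after TMM (trimmed mean of M values) adjustment, every log2 ratio is Pc4-OE over control, and every interval is a 95% interval for counting error alone. Genes with 20 or more counts over both libraries, 14213 in number, count as measured, and the 2-fold rule asks for a change of 2-fold or more in either direction with an interval clear of a ratio of 1. Of 10 stem cell markers 3 had an interval above a ratio of 1 and 5 below it. Over all measured genes the shares were 31.2% above and 33.1% below. The median log2 ratio of these markers was -0.13, and single markers ran from -0.93 to 0.24. Pou5f1, the lowest of them, had 571.4 CPM in Pc4-OE and 1092.2 CPM in control. All 24 fibroblast markers were higher in Pc4-OE, 18 of them at least 2-fold, against 11.8% of all measured genes. Their median was 1.29, and their summed level was 21046 CPM in Pc4-OE against 8489 CPM in control. Col1a1 had 1535.8 CPM in Pc4-OE and 732.5 CPM in control. Of 16 measured macrophage markers 15 were at least 2-fold higher, against 11.8% of all measured genes. Their median was 2.31, and the summed level of the list was 646.0 CPM in Pc4-OE against 228.3 CPM in control. Lyz1 was the only listed marker at 0, in the control library. These markers moved with the labels beside every value that follows, and their part in the results was not tested. In RNA from mixed cells, fewer cells of a type and less RNA per cell cannot be told apart.

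Most of the 10 genes were a little lower in the library labelled Pc4-OE, and Cstf3 was the one that met the 2-fold rule. Their median log2 ratio was -0.34, against -0.01 over all measured genes. The count of members at least 2-fold lower was 1 of 10, where 4.02% of all measured genes were, and 0 of 10 were at least 2-fold higher, where 11.8% of all genes were. At 1.5-fold, 3 members were lower (Cstf3, Clp1 and Cpsf4) against 13.2% of all genes, and 0 were higher against 18.8%. The interval lay below a ratio of 1 for 8 members, while 33.1% of all measured genes and 38% of those with at least 100 counts had such an interval. It lay above 1 for Sympk alone, against 31.2% of all genes. Summed over both libraries, the members had between 815 and 5548 counts each. The counts of the 10 genes summed to 11412 in Pc4-OE and 13656 in control, a log2 ratio of -0.25 (interval -0.29 to -0.21).

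**Figure D1:**
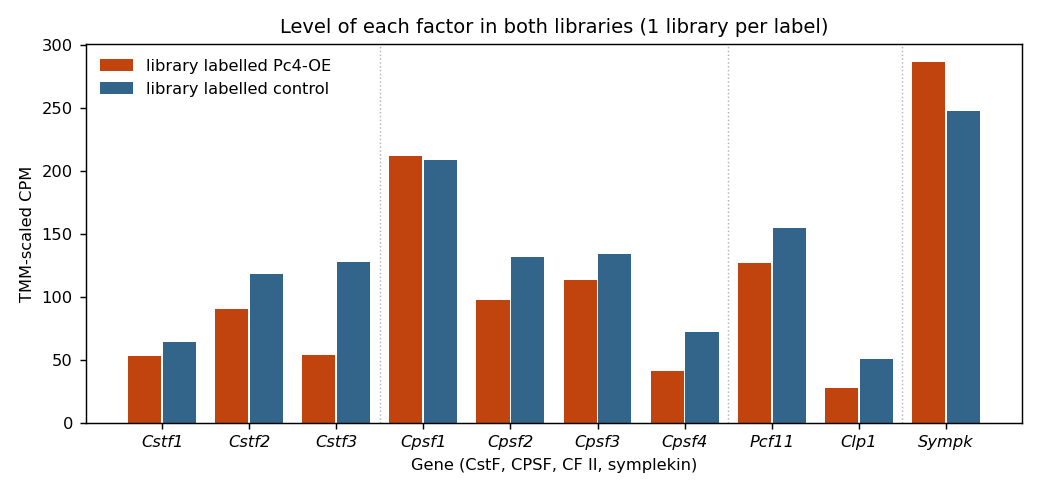
TMM-scaled CPM of each of the 10 genes, with the library labelled Pc4-OE in orange and the library labelled control in blue, 1 library each, and dotted lines between the complexes. Cstf3 has the widest gap between the bars, at 53.6 CPM in Pc4-OE and 127.7 CPM in control, while Cpsf1 is nearly level and Sympk is higher in Pc4-OE.

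The CstF subunits were all lower in Pc4-OE, but by unequal amounts. Cstf3 encodes the scaffold subunit that dimerises and carries the other subunits. It had 555 counts (53.6 CPM) in Pc4-OE and 1330 counts (127.7 CPM) in control. That is 2.38-fold lower (interval 2.16 to 2.63), a log2 ratio of -1.25 (interval -1.40 to -1.11), and only 2.27% of measured genes had a ratio as low or lower. Cstf2 encodes the RNA-binding subunit, the one known to bind PC4. It had 937 counts (90.5 CPM) in Pc4-OE and 1231 counts (118.2 CPM) in control, a log2 ratio of -0.38 (interval -0.51 to -0.26). Cstf1 encodes the WD-repeat subunit, which in human cells also binds BARD1. It had 550 counts (53.1 CPM) in Pc4-OE and 672 counts (64.5 CPM) in control, a log2 ratio of -0.28 (interval -0.45 to -0.12). Cstf2 and Cstf1 thus lay inside the bulk of measured genes, at the 24.9th and 31.5th percentiles of all ratios.

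The balance among the CstF transcripts can be read without any scaling between libraries. Cstf3 had 1.01 counts for each Cstf1 count in Pc4-OE and 1.98 in control, so that the quotient of the ratios was 0.510 (interval 0.438 to 0.594). Against Cstf2 the same quotient was 0.548 (interval 0.480 to 0.626), with 0.592 Cstf3 counts per Cstf2 count in Pc4-OE and 1.08 in control. Both intervals exclude 1 for counting error. These pairs were chosen after the values were seen, with the Cstf3 ratio the lowest in CstF, and the intervals make no allowance for that. Cstf2 against Cstf1 gave 0.930 (interval 0.806 to 1.07), a difference that was not detectable at this depth. Cstf2t, the intronless autosomal copy of Cstf2 that is known for its part in male germ cells, had 60.2 CPM in Pc4-OE and 76.0 CPM in control (log2 ratio -0.34). The quotient of Cstf2 over Cstf2t was 0.966 (interval 0.842 to 1.11), a difference not detectable at this depth. Cstf2 and its copy resemble each other in sequence, so reads could be split between them in either direction.

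The CPSF genes ranged from level to clearly lower. Cpsf1 encodes the largest subunit, which holds the module that recognises the hexamer. It had 2195 counts (212.1 CPM) in Pc4-OE and 2177 counts (209.1 CPM) in control, a log2 ratio of 0.02 (interval -0.07 to 0.11). This gene, second of the 10 in CPM, had nearly equal values in the libraries. Cpsf4 encodes a zinc finger protein that contacts the hexamer in the human complex. It had 422 counts (40.8 CPM) in Pc4-OE and 749 counts (71.9 CPM) in control, 1.76-fold lower (interval 1.56 to 1.99). Its log2 ratio of -0.82 was the lowest within CPSF and stood at the 7.21st percentile of measured genes.

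Cpsf3, the endonuclease, and Cpsf2, its catalytically inactive relative, form the cutting module together with symplekin. Cpsf3 had 1174 counts (113.4 CPM) in Pc4-OE and 1397 counts (134.2 CPM) in control, a log2 ratio of -0.24 (interval -0.36 to -0.13). Cpsf2 had 1012 counts (97.8 CPM) in Pc4-OE and 1375 counts (132.0 CPM) in control, a log2 ratio of -0.43 (interval -0.55 to -0.32). The nuclease and its partner were thus both modestly lower, and their quotient, Cpsf2 over Cpsf3, was 0.876 (interval 0.781 to 0.981). Cpsf4 against Cpsf1 gave a quotient of 0.559 (interval 0.488 to 0.640), with 0.192 Cpsf4 counts per Cpsf1 count in Pc4-OE and 0.344 in control. Both intervals exclude 1 for counting error, but the pairs were chosen after the values were seen. Cpsf4 and Cpsf1 had the lowest and the highest log2 ratio within CPSF, and the intervals make no allowance for that choice.

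Cleavage factor II has the factors Pcf11 and Clp1, and both genes were lower in Pc4-OE. Pcf11 binds the carboxy-terminal domain of the polymerase and also acts in termination. It had 1315 counts (127.1 CPM) in Pc4-OE and 1614 counts (155.0 CPM) in control, a log2 ratio of -0.29 (interval -0.39 to -0.18). Clp1 encodes an RNA kinase that also sits in the tRNA splicing endonuclease complex. It had 286 counts (27.6 CPM) in Pc4-OE and 529 counts (50.8 CPM) in control, 1.84-fold lower (interval 1.59 to 2.13). With a log2 ratio of -0.88 at the 5.97th percentile of measured genes, Clp1 did not meet the 2-fold rule, although its interval reaches past 2-fold. The quotient of Clp1 over Pcf11 was 0.664 (interval 0.563 to 0.782).

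Sympk, which encodes the scaffold symplekin, was the 1 gene of the 10 whose interval lay above a ratio of 1. It had 2966 counts (286.6 CPM) in Pc4-OE and 2582 counts (248.0 CPM) in control, a log2 ratio of 0.21 (interval 0.13 to 0.29). Sympk took 26.0% of the summed counts of the 10 genes in Pc4-OE and 18.9% in control, while Cstf3 took 4.86% in Pc4-OE and 9.74% in control. Sympk over Cpsf1, the other gene that was not lower, gave a quotient of 1.14 (interval 1.05 to 1.23).

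**Figure D2:**
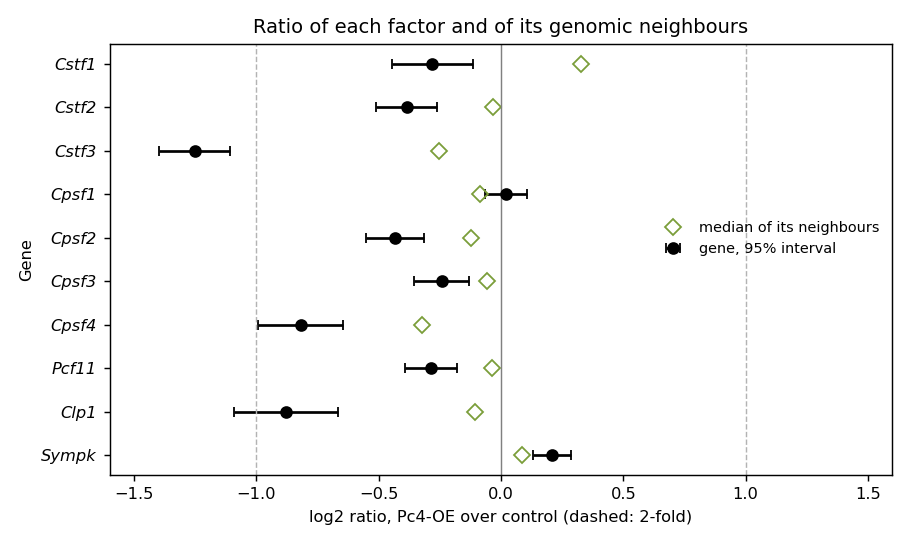
Log2 ratio, Pc4-OE over control, of each of the 10 genes (black points, bars for the 95% counting interval) and the median log2 ratio of its 20 nearest measured genes (open diamonds). Cstf3 is the only point left of the dashed 2-fold line, and Cpsf1 and Sympk are the only black points right of 0.

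The members near the 2-fold threshold were Cstf3 inside it, at a log2 ratio of -1.25, and Clp1 (-0.88) and Cpsf4 (-0.82) outside it. Next came Cpsf2 at -0.43, which leaves a gap between those 3 genes and the other 7, whose log2 ratios ran from -0.43 to 0.21. The order of complexes by median log2 ratio was -0.58 for the cleavage factor II pair, -0.38 for CstF and -0.34 for CPSF, with the single scaffold gene at 0.21. With 2 to 4 genes each, these medians describe the listed genes and rank nothing beyond them.

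**Figure D3:**
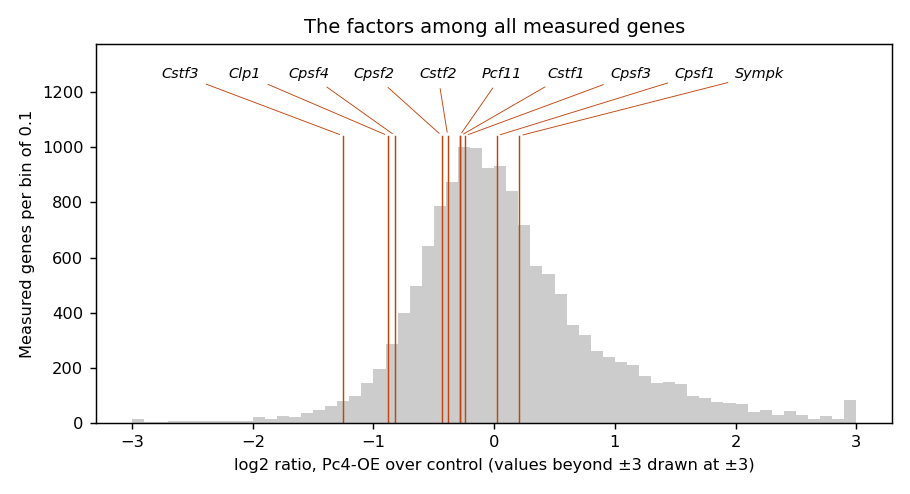
Histogram of the log2 ratio, Pc4-OE over control, of all measured genes in bins of 0.1 (grey), with an orange line for each of the 10 genes. Cstf3, Clp1 and Cpsf4 stand in the left tail, and the other lines fall within the central peak.

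Levels can be compared between genes per length, here as CPM per kb of the longest coding transcript, on the assumption that this transcript is the one made. Sympk was highest in both libraries, at 69.6 CPM per kb in Pc4-OE and 60.2 in control. Cpsf1 and Cpsf3 followed in Pc4-OE, at 46.9 and 45.4 CPM per kb with overlapping counting intervals, and in control Cpsf3 stood at 53.7 and Cpsf1 at 46.3. Cstf3 had 19.0 CPM per kb in Pc4-OE, in place 7 of 10, and 45.3 in control, in place 4 of 10. In Pc4-OE, the genes in places 4 to 9 (Cpsf4, Pcf11, Cstf2, Cstf3, Cpsf2 and Cstf1) ran from 23.2 to 15.4 CPM per kb, and each overlapped the next within counting error. In control, Cpsf1, Cstf3 and Cpsf4 overlapped in that way, as did Cstf2 with Pcf11 and Clp1 with Cstf1. Clp1 was lowest in Pc4-OE at 10.8 CPM per kb, and had 19.8 in control, where Cstf1 was lowest at 18.7. The transcript used for Clp1 ends at position 84722104 of chromosome 2, past the end of its RefSeq gene at 84723122. If the counting annotation also stopped there, the length used for Clp1 was too long and its level per kb too low. The place of Clp1 in this order is therefore uncertain. The subunits of CstF were thus spread over 15.4 to 20.1 CPM per kb in Pc4-OE and over 18.7 to 45.3 in control.

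The genes lie on 6 chromosomes, and neighbour medians lay nearer to 0 than the gene itself for 8 of the 10, the exceptions being Cstf1 and Cpsf1. A median of 20 ratios varies less than a single ratio, so this is likely for any gene. The share over all measured genes was not computed. Cstf1, Cstf3 and Clp1 are on chromosome 2, Pcf11 and Sympk on chromosome 7, Cpsf2 and Cpsf3 on chromosome 12, Cpsf1 on chromosome 15, Cpsf4 on chromosome 5 and Cstf2 on the X chromosome. The 20 nearest measured genes around Cstf3 (104590484 to 104665425 on chromosome 2) had a median log2 ratio of -0.25, with 13 of 20 below a ratio of 1. Clp1 (84723122 to 84727287 on chromosome 2) had a neighbour median of -0.11 and differed from it by -0.77. For Cpsf4 (145167213 to 145182041 on chromosome 5) the neighbour median was -0.32, the same as that of chromosome 5 as a whole, the lowest of the chromosome medians. It differed from its neighbours by -0.49. Cstf1 went against its surroundings, with a neighbour median of 0.33 and only 4 of 20 neighbours below a ratio of 1. For the other 6 genes the neighbour median lay between -0.12 and 0.09.

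Annotated overlaps bear on a few of these counts, since the strand setting of the counting is not given in the sources used here. Cstf3 overlaps Tcp11l1, on the opposite strand, over 8142 bases of gene body. Tcp11l1 had 73 counts in Pc4-OE and 76 in control, far fewer than Cstf3 in either library. Without the strand setting, these counts cannot show how many reads fell in both genes. Itgb1bp1, opposite to Cpsf3 over 894 bases, had 237 counts in Pc4-OE and 184 in control, a log2 ratio of 0.37 (interval 0.09 to 0.66) against -0.24 for Cpsf3. Nox1, opposite to Cstf2, had 0 counts in Pc4-OE and 1 in control, and Adck5, which touches Cpsf1 over 14 bases, had 150 in Pc4-OE and 185 in control. Overlaps with a long noncoding or unclassified locus were annotated for Cpsf2 and Pcf11, and were not counted here.

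Further core factors of the machinery had ratios just below 1. Of 10 further core factors, all had a ratio below 1, as did 50.7% of all measured genes. The interval lay below 1 for 8, as for 33.1% of all measured genes and 38% of those with at least 100 counts. None met the 2-fold rule in either direction, against 4.02% of all measured genes lower and 11.8% higher. Their median log2 ratio was -0.30, with values from -0.54 to -0.16. Wdr33, which reads the hexamer beside Cpsf4, had 111.1 CPM in Pc4-OE and 161.3 CPM in control, a log2 ratio of -0.54 (interval -0.65 to -0.43). Fip1l1, the CPSF subunit that binds U-rich RNA and the polymerase that adds the tail, had 85.5 CPM in Pc4-OE and 102.1 CPM in control, a log2 ratio of -0.26. Cpsf4 was lower than both: the quotient was 0.823 against Wdr33 (interval 0.713 to 0.95) and 0.677 against Fip1l1 (interval 0.581 to 0.788).

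Cleavage factor I, known to favour distal poly(A) sites, is formed by Nudt21 with Cpsf6 or Cpsf7. Cpsf6 had a log2 ratio of -0.45 and Cpsf7 of -0.34, both with intervals below 0. Nudt21 had 190 counts in Pc4-OE and 223 in control, and its log2 ratio of -0.22 (interval -0.51 to 0.06) was not distinguishable from 0 at this depth. Rbbp6, a ubiquitin ligase needed for cleavage, had a log2 ratio of -0.40. The poly(A) polymerase genes Papola and Papolg had -0.25 and -0.16, and Pabpn1, whose protein coats the new tail, -0.16. The interval of Papolg ran from -0.34 to 0.01, so it too did not exclude 0.

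Genes that work beside the machinery were grouped by process. Of 14 termination and phosphatase factors, 13 had a ratio below 1, against 50.7% of all measured genes. The interval lay below 1 for 10, against 33.1% of all measured genes and 38% of those with at least 100 counts. Their median log2 ratio was -0.36. Against 4.02% of all measured genes at least 2-fold lower and 11.8% higher, 1 of the 14 met the 2-fold rule. This was Ppp1r10, which encodes PNUTS, the nuclear targeting subunit of protein phosphatase 1. It had 57.6 CPM in Pc4-OE and 128.8 CPM in control, a log2 ratio of -1.16 (interval -1.30 to -1.02). Tox4, a PNUTS partner, was the highest of the list at 0.12. For 7 genes for the cleavage of histone transcripts, which uses CPSF and symplekin but makes no tail, the median was -0.43. Of these, 1 was at least 2-fold lower, against 4.02% of all measured genes, and 0 were higher, against 11.8%. That gene was Slbp, the stem-loop binding protein, with 68.5 CPM in Pc4-OE and 169.8 CPM in control, a log2 ratio of -1.31 (interval -1.44 to -1.18). Slbp lies on chromosome 5, as does Cpsf4, and a part of its position was not tested. Lsm11, a subunit of the U7 particle, was the highest of this list at 0.46.

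The Integrator complex cuts small nuclear RNAs with relatives of Cpsf3 and Cpsf2. All 14 of its genes had an interval below a ratio of 1, against 33.1% of all measured genes and 38% of those with at least 100 counts. In either direction 0 met the 2-fold rule, against 4.02% of all genes lower and 11.8% higher, and the median log2 ratio was -0.33. They ran from -0.75 for Ints7 to -0.14 for Ints3. The Integrator nuclease gene, listed as Cpsf3l, had a log2 ratio of -0.23, beside -0.24 for Cpsf3. Of 4 genes of the tRNA splicing endonuclease, the complex that Clp1 joins, all had a ratio below 1, against 50.7% of all measured genes. The interval lay below 1 for 3, against 33.1% of all genes and 38% of those with at least 100 counts. Of the 4 genes, 0 met the 2-fold rule, against 4.02% of all genes lower and 11.8% higher. Their median of -0.36 lay above the -0.88 of Clp1, with Tsen34 at -0.51 and Tsen15 at -0.19.

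Other factors shorten, bind or lengthen the tail afterwards. Of 14 deadenylase genes 0 met the rule, against 4.02% of all measured genes lower and 11.8% higher. Their median log2 ratio was -0.20, from -0.55 for Cnot10 to 0.15 for Cnot8. Of 8 genes for tail binding and cytoplasmic polyadenylation, 1 was at least 2-fold higher, which is close to the 11.8% of all measured genes. In the other direction 0 were lower, against 4.02%, and the median was 0.17. Cpeb1, which recruits CPSF and symplekin to stored transcripts in oocytes, had 22.9 CPM in Pc4-OE and 8.16 CPM in control, a log2 ratio of 1.49 (interval 1.12 to 1.86). Pabpc1, the main cytoplasmic tail-binding protein, was lowest of that list at -0.55. It lies on chromosome 15, as do Sub1 and Cpsf1. The median of that chromosome was -0.13, and a part of position was not tested. Of 12 regulators of poly(A) site choice, 10 had an interval below 1. Over all measured genes 33.1% had one, and 38% of those with at least 100 counts. Of the 12, 0 met the 2-fold rule, against 4.02% of all genes lower and 11.8% higher, and the median was -0.35. Khdrbs1 was lowest at -0.91 and Mbnl1 highest at 0.44.

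**Figure D4:**
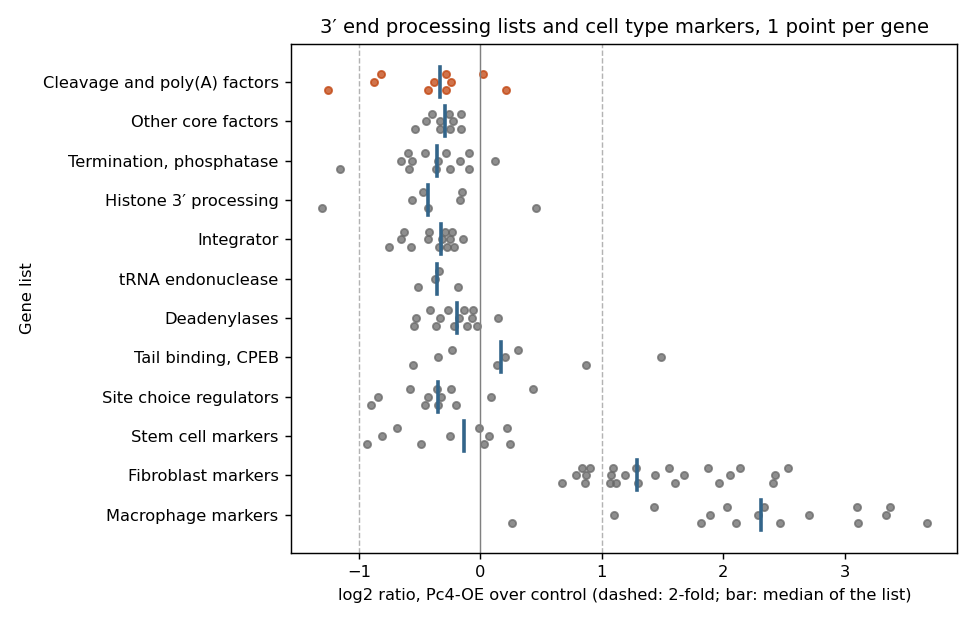
Log2 ratio, Pc4-OE over control, of each measured gene (points) in the 10 cleavage and polyadenylation genes (orange), the other 3′ end lists and the marker lists (grey), with a blue bar at the median of each list. The medians of the nuclear 3′ end lists lie between -0.43 and -0.30, that of the deadenylases at -0.20, that of the tail-binding list at 0.17, and those of the fibroblast and macrophage markers at 1.29 and 2.31.

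The last list held Sub1, which encodes PC4 itself, and Polr2a and Bard1 as partners of CstF and PC4. Sub1 was the 1 gene of 3 at least 2-fold lower, against 4.02% of all measured genes. In the other direction 0 were higher, against 11.8%, and the median of -0.72 was the value of Polr2a. Polr2a, the largest polymerase subunit, had 409.5 CPM in Pc4-OE and 676.1 CPM in control, a log2 ratio of -0.72 (interval -0.78 to -0.67). Bard1, which encodes the partner of the Cstf1 protein, had 92.9 CPM in Pc4-OE and 93.0 CPM in control, with an interval of -0.13 to 0.13. Beside Sub1 at -1.17, Cstf3 stood at -1.25 and Cstf2, the subunit known to bind PC4, at -0.38. With 2 libraries a pattern across samples is a single ratio, so genes that resemble Cstf3 in pattern are not named.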

How the data were processed

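The study's material was poly(A) RNA of mouse embryonic stem cells, made into stranded TruSeq mRNA libraries per the labels' protocols, with 1 library labelled Pc4-OE and 1 labelled control. The deposited values are whole-number read counts per gene. The submitters' processing notes name STAR 2.4.1c, featureCounts and the mm10 build. The annotation, the strand setting and how multi-mapping reads were handled are not given in the labels or the table. The poly(A) selection means that transcripts without a tail are under-represented.

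Counts were scaled by TMM (edgeR 4.0.16) to CPM. Ratios have no pseudocount and cover genes whose counts in both libraries sum to 20 or more, with exact (Clopper-Pearson) binomial intervals of the 2 counts, and per-kb levels were given exact Poisson intervals. Reads are not independent molecules, so intervals cover counting error alone. Quotients of ratios, chosen after the values were seen, have conditional exact intervals. The design has 1 library per group, so no test between groups was made and edgeR served for scaling only. Neighbours were the 10 measured genes on either side with a mean of at least 5 CPM, by RefSeq positions of GRCm38, the assembly that mm10 copies. Transcript lengths, overlaps and sequences came from GENCODE M21.

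The members, the gene lists and the marker lists were chosen with earlier results of these data known. Named genes were the 10 members, all further core factors, and from each other list those past the 2-fold rule plus the highest and the lowest with at least 100 counts, with Sub1, Pou5f1 and Col1a1. Cpsf3l, Polr2a, Lyz1 and the overlapping genes were named after their values were seen. The table lists 6 of these genes under older symbols. Alternatives were library totals, DESeq2 1.42.0 size factors, upper quartile factors, a pseudocount of 0.5 CPM, other count minimums and a 1.5-fold rule. On simulated Poisson counts with known folds, the calls and the intervals were checked. Such counts follow the model behind the intervals and hold no spread between cultures, so this checks the arithmetic alone.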

Additional observations from a re-analysis of the deposited data

How the results depend on the processing

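Every one of the 10 genes kept its direction under library totals, DESeq2 size factors, upper quartile factors and a pseudocount of 0.5 CPM. Cstf3 ran from -1.26 to -1.21 on the log2 scale. The other count minimums could not change these ratios, because every member had counts well above them. The median of the 10 genes ran from -0.34 to -0.29 over these settings. Leaving out chromosomes 5 and 15 takes away Cpsf4, below the median, and Cpsf1, above it. The median of -0.34 could therefore not change, and this setting tells nothing about those chromosomes. The median of all measured genes ran from -0.05 with at least 100 counts to 0.03 with library totals, so no scaling moved it by over 0.1. The limit for a median was set by the spread between the list's own genes, which is wide beside the shifts from scaling. The medians could hardly leave it, so the tally is a weak check. The count minimums could not move any list either, because every gene in the 3′ end lists had at least 223 counts. Across these settings, 195 of 201 list counts and medians stayed within the limits set for them. The others all came from the 1.5-fold rule, which by its construction called 3 of the 10 genes lower. It also called lower 4 termination and phosphatase factors, 3 Integrator genes, 2 site choice regulators, and Sub1 and Polr2a. It called 2 tail-binding or CPEB genes higher. Over all measured genes, 2673 were then higher and 1878 lower, against 1673 higher and 572 lower at 2-fold, and 1095 higher and 366 lower at 2-fold with at least 100 counts. No paired analysis was possible because the result comes from no test and each group has 1 library. Gene counts do not tell transcript ends apart, so poly(A) site use was not measured, and every difference is one between 2 libraries.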
